A study of Homo sapiens with 6 samples.

Results

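The 10 genes described here encode ligands, inhibitors and receptors of the activin and TGF-beta branch of the TGF-beta superfamily: INHBA, INHBB, FST, FSTL3, TGFB1, TGFB2, TGFBR1, TGFBR2, ACVR2A and ACVR1B. They were chosen by symbol, and each symbol matched a single Ensembl identifier, so 10 of the 58825 identifiers in the table are members. SKOV3 is a human epithelial ovarian cancer cell line, grown by the study in RPMI-1640 medium with serum. Its cells were transiently transfected with an RNAi negative control (NC, 3 libraries) or with a single siRNA duplex against EIF5A2 (si-EIF5A2, 3 libraries), and mRNA was sequenced 48 h later according to the description of the series. All 6 libraries come from the same cell line, and the labels do not say whether replicates are separate cultures, so p-values measure only the spread between these libraries.

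Activins are dimers of inhibin beta subunits, which INHBA (beta A) and INHBB (beta B) encode. An activin binds a type II receptor such as ACVR2A, which recruits and phosphorylates the type I receptor ACVR1B, whereas the TGF-beta ligands bind TGFBR2, which recruits TGFBR1. Both type I receptors phosphorylate SMAD2 and SMAD3, which then enter the nucleus with SMAD4. Activins and inhibins are known from the ovary, where they act on follicles and on hormone release, and TGF-beta is known in carcinomas for growth arrest as well as for epithelial to mesenchymal transition.

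Library totals lay between 46900204 and 74142267 estimated counts. Low values in the table recur every 3.73 counts, so that 1 sequenced fragment seems to add several counts. With 0 counts a level of up to 3 fragments remains possible, or 0.153 to 0.238 CPM (counts per 1e6 counts, scaled by edgeR's TMM factors) depending on the library, and such limits cover counting error only. EIF5A2 was at 27.8 to 29.9 CPM in NC and at 2.76 to 4.27 CPM in si-EIF5A2 libraries. All 6 markers of epithelial ovarian cancer cells were detected, with a summed level of 1502 to 1670 CPM in NC and 953 to 1165 CPM in si-EIF5A2 libraries, although EPCAM was low (1.149 to 1.682 CPM). Of these 6 markers KRT8 (log2 fold change -0.69), KRT7 (-0.87) and PAX8 (-0.80) were called lower, and KRT18, EPCAM and ERBB2 were not called. Of 5 leukocyte markers only CD68, which other cells express too, exceeded 1 CPM, and PTPRC and CD3E were at 0 in every library. The summed level of 4 endothelial markers was 2.25 to 2.40 CPM in NC and 0 to 1.31 CPM in si-EIF5A2 libraries, and that of 5 fibroblast markers was 0.362 to 1.151 CPM in NC and 0.782 to 2.67 CPM in si-EIF5A2 libraries. PECAM1 made up most of the endothelial sum in NC. Its level was 1.62 to 2.04 CPM in NC and 0 to 0.667 CPM in si-EIF5A2 libraries, and it was not called (edgeR adjusted p = 0.0941). COL1A1, which is also a listed target gene, made up most of the fibroblast sum except in NC replicate 3. Its level was 0.0638 to 1.151 CPM in NC and 0.782 to 1.98 CPM in si-EIF5A2 libraries, and it was not called (edgeR adjusted p = 0.361). POSTN was at 0 in every library. The part of these marker differences in the results below was not tested.

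After EIF5A2 knockdown INHBA and TGFBR1 were upregulated and INHBB was downregulated. The other 7 members were not differentially expressed by the criteria used throughout, a fold change over 1.5 with an adjusted p under 0.05 (edgeR, quasi-likelihood test, Benjamini-Hochberg adjustment over 16208 genes), and all 10 members were among the genes tested. The 3 calls are 30.0% of the members, beside 24.6% of all genes tested. Upregulated genes were 11.1% and downregulated genes 13.6% of all genes tested. The median log2 fold change of the members was 0.435, beside -0.010 over all genes tested. In 6 of the 10 members the CPM ranges of the groups were separate, beside 51.2% of all genes tested. The members were chosen with earlier results of these data known, so nothing particular to them is read from these shares or medians. In bulk RNA, a change in level per cell cannot be told apart from a change in the share of cells that express the gene.

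**Figure D1:**
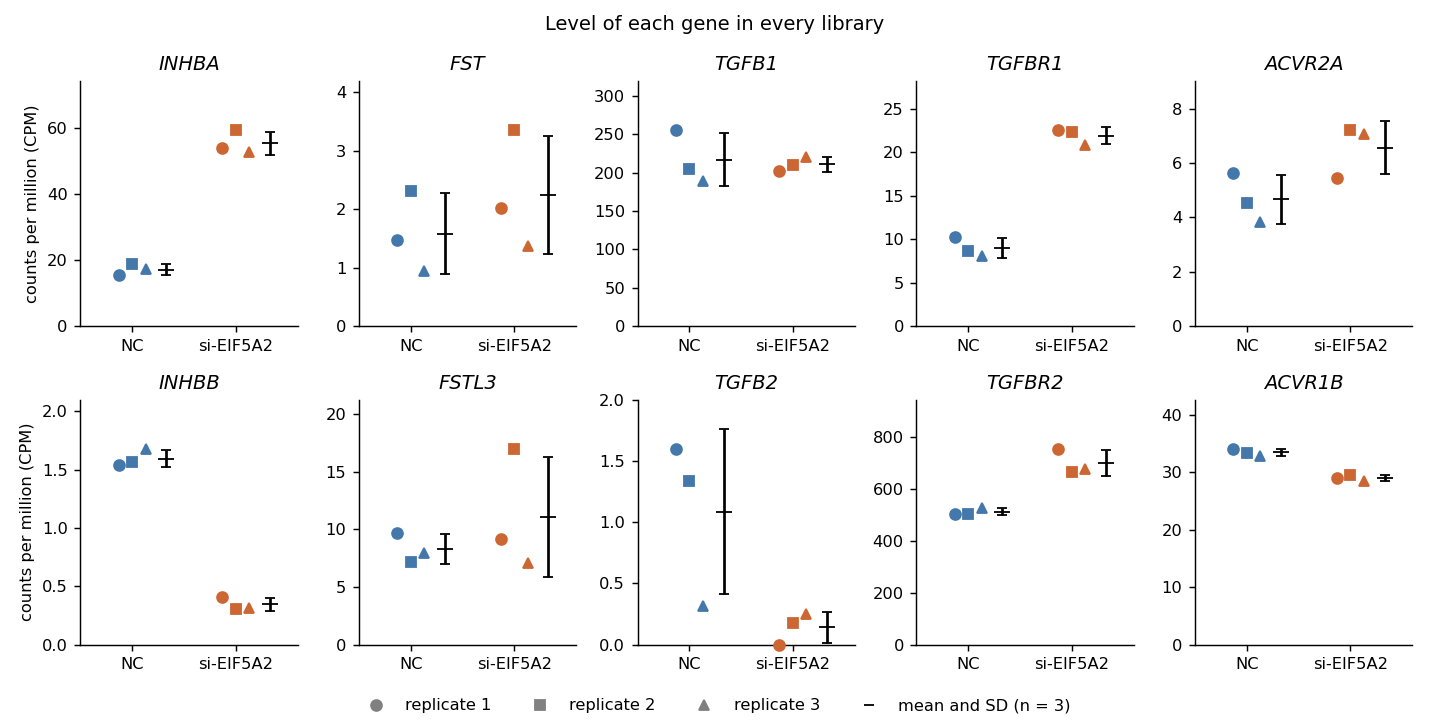
Level of each of the 10 genes in CPM (vertical axes, each starting at 0) in the 3 NC libraries (blue) and the 3 si-EIF5A2 libraries (orange), with a marker shape for each replicate number and the mean with SD in black. INHBA and TGFBR1 lie higher and INHBB lower in every si-EIF5A2 library, whereas FST, FSTL3, TGFB1 and ACVR2A overlap between the groups.

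A link of promoter sequence to the changes in level was not tested. Shown, as a description only, are the sequences before the start sites of the 3 called genes. They are the 250 bases before the RefSeq start site (GRCh38.p14), on the strand of the gene, with matches to the searched motifs in capitals. All 10 members had an entry in RefSeq's promoter table. Where a gene had several, as TGFBR1 with 8, the entry nearest to the start of the transcript that GENCODE numbers first was used. INHBA lies at chr7:41703091-41703340 on the minus strand, INHBB at chr2:120345886-120346135 on the plus strand and TGFBR1 at chr9:99104863-99105112 on the plus strand.
INHBA: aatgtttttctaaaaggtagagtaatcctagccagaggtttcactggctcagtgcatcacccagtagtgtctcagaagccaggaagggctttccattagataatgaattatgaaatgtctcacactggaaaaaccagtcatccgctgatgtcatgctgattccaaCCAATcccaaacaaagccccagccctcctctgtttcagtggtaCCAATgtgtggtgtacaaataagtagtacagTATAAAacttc
INHBB: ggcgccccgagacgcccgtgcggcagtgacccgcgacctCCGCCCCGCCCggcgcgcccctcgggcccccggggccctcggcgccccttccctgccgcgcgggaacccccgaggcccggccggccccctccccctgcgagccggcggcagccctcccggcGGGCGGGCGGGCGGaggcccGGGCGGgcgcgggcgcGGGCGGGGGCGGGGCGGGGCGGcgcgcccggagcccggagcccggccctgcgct
TGFBR1: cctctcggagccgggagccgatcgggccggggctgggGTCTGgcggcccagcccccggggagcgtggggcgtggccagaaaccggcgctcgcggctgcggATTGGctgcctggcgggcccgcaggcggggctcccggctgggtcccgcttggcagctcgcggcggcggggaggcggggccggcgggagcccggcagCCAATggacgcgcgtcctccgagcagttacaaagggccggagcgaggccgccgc

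The INHBA window is 42.8% G and C with 1 CpG, whereas the INHBB window is 89.6% with 46 CpG and the TGFBR1 window 79.6% with 35 CpG. The median over all 35116 promoter entries of this length is 58.0%. Searched on both strands were TATAAA as the core promoter element of that name, then CCAAT as the motif that NF-Y is known to bind, then GGGCGG as the motif of SP1, TGANTCA as that of AP-1, TGACGTCA as the cAMP response element and CAGAC as the SMAD-binding motif. Overlapping matches were counted separately. INHBA holds TATAAA, which ends 5 bases before the start site and occurs in 10.7% of all entries, and 2 matches to CCAAT, which occurs in 32.0%. In GENCODE, the INHBA gene reaches upstream beyond its window, to 41705834, and the TGFBR1 gene begins before its window, at 99104038. These windows thus lie inside the annotated genes, whereas the INHBB window lies before its gene. Of the INHBA window 18 bases, of the TGFBR1 window 24 and of the INHBB window 0 lie in exons of the gene itself. The 18 bases of INHBA are those next to the RefSeq start site, so its TATAAA match lies within an annotated exon. INHBB holds 10 matches to GGGCGG, some of them overlapping, a motif found in 42.6% of all entries. TGFBR1 holds 2 matches to CCAAT and 1 to CAGAC, which 38.0% of all entries hold. Neither TGANTCA, in 6.57% of all entries, nor TGACGTCA, in 1.65%, occurs in these 3 windows. Among the other members, FSTL3 and TGFB2 hold TATAAA, and FST holds TGANTCA. TGFB2 also holds 2 matches to CAGAC, FST and TGFBR2 hold CCAAT, and FST, FSTL3, TGFB1, TGFBR2 and ACVR1B hold GGGCGG. The TGANTCA match of FST lies in an exon of FST, as do 220 of the 250 bases of that window. In the FSTL3 window, 27 bases lie in exons of FSTL3. For TGFB2 the RefSeq start site is at 218345336 of chromosome 1, whereas the GENCODE transcript starts at 218346235. A match of these letters describes the sequence and does not show a bound factor.

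The activin subunit genes moved in opposite directions. INHBA (ENSG00000122641), at 41667168 to 41705834 of chromosome 7 (minus strand, GRCh38, GENCODE release 29), had 1118, 1329 and 806 counts in NC replicates 1 to 3 and 2757, 3092 and 2517 in si-EIF5A2 replicates 1 to 3. These are 15.3, 18.8 and 17.1 CPM in NC and 53.9, 59.2 and 52.5 CPM in si-EIF5A2 libraries. Every si-EIF5A2 library was above every NC library. INHBA rose 3.23-fold, from 17.1 ± 1.72 to 55.2 ± 3.56 CPM (SD, n = 3 each). In log2 the change was 1.69 with a standard error of 0.11 (95% interval 1.44 to 1.94, edgeR adjusted p = 2.14e-05). Across all alternatives its log2 fold change lay between 1.62 and 1.77 and it stayed called.

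INHBB (ENSG00000163083), on the plus strand of chromosome 2 from 120346143 to 120351808, was far less abundant. It had 112, 111 and 79 counts (1.53, 1.57 and 1.68 CPM) in NC and 21, 16 and 15 counts (0.411, 0.307 and 0.313 CPM) in si-EIF5A2 libraries. The lowest NC library was thus well above the highest si-EIF5A2 library, and the si-EIF5A2 values correspond to only a few fragments per library. INHBB fell by 2.21 on the log2 scale (standard error 0.34, 95% interval -2.99 to -1.42, edgeR adjusted p = 0.00154), so that 21.5% of the NC level was left. It stayed called across all alternatives, with log2 fold changes from -2.36 to -2.13.

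Per kilobase of exon, the INHBA level was 3.85, 4.62 and 3.94 times the INHBB level in NC replicates 1 to 3. In si-EIF5A2 replicates 1 to 3 the same ratio was 50.7, 74.6 and 64.8. The log2 ratio went from 2.04 ± 0.14 to 5.97 ± 0.28 (SD, n = 3 each), a difference of 3.92 that is many times the spread between replicates. No test was run on this or the other ratios, which are given as descriptions. An exact two-sided permutation test of 3 against 3 libraries cannot go below 0.10.

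FST and FSTL3 encode follistatin and follistatin-like 3, secreted proteins that bind activins and keep them from their receptors. FST (ENSG00000134363), on the plus strand of chromosome 5 from 53480409 to 53487134, had 1.48, 2.32 and 0.936 CPM in NC and 2.02, 3.35 and 1.38 CPM in si-EIF5A2 libraries. The groups overlapped, and the log2 fold change of 0.51 (95% interval -0.50 to 1.51, edgeR adjusted p = 0.414) was not called. The interval is wide enough to hold both no change and a rise of the gene beyond the fold limit. The log2 fold change of FST was 0.10 without si-EIF5A2 replicate 2 and 0.89 without NC replicate 2, the lowest and highest values with a library left out.

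FSTL3 (ENSG00000070404), on the plus strand of chromosome 19 from 676365 to 683399, had 9.69, 7.20 and 7.95 CPM in NC and 9.15, 17.0 and 7.11 CPM in si-EIF5A2 libraries. Only si-EIF5A2 replicate 2 was above the NC range, and it set the sign of the difference. The log2 fold change was 0.42 (95% interval -0.34 to 1.19, edgeR adjusted p = 0.366), and it was -0.027 without si-EIF5A2 replicate 2. That library was also the highest of the 6 in FST.

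The INHBA level per kilobase was 3.70, 2.90 and 6.55 times that of FST in NC and 9.57, 6.32 and 13.6 times in si-EIF5A2 libraries. In log2 the ratio had a mean of 2.04 ± 0.60 in NC and 3.23 ± 0.56 in si-EIF5A2 libraries (SD, n = 3 each). The groups overlapped in this ratio, since NC replicate 3 was above si-EIF5A2 replicate 2.

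**Figure D2:**
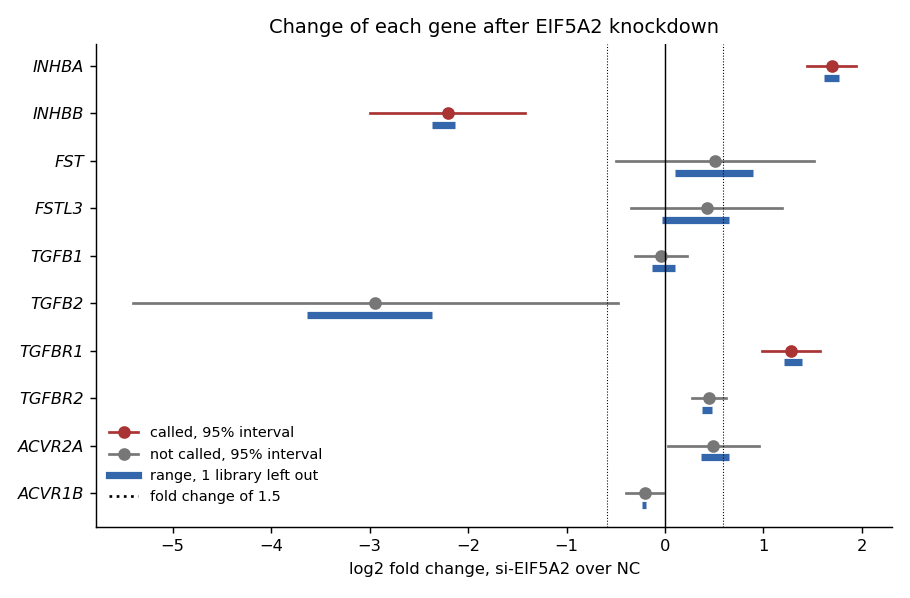
Log2 fold change of each of the 10 genes, si-EIF5A2 over NC (horizontal axis), with the 95% interval from edgeR's fit (red for called genes, grey for the rest), the range with each library left out in turn (blue bar) and a fold change of 1.5 in either direction (dotted lines). The intervals of INHBA, INHBB and TGFBR1 lie beyond the dotted lines, that of TGFB2 spans -5.41 to -0.48, and those of FST, FSTL3 and TGFB1 include 0.

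TGFB1 was by far the more abundant TGF-beta ligand gene, and its level did not pass the test. TGFB1 (ENSG00000105329) is found at 41301587 to 41353911 of chromosome 19 (minus strand). It had 255.8, 204.8 and 189.7 CPM in NC and 202.1, 210.1 and 221.2 CPM in si-EIF5A2 libraries. All si-EIF5A2 values lay within the NC range. The log2 fold change was -0.038 (95% interval -0.30 to 0.23, edgeR adjusted p = 0.834), so the interval leaves out a change of 1.5-fold in either direction. Without NC replicate 1, its highest library, the sign turned (0.097). The exons of TGFB1 share 215 bases with those of HNRNPUL1 on the opposite strand, and whether the counting used strand is not given in the sources used here.

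TGFB2 (ENSG00000092969), on the plus strand of chromosome 1 from 218346235 to 218444619, was low. In NC replicate 3 and in the si-EIF5A2 libraries it was near the detection limit. It had 117, 95 and 15 counts (1.603, 1.341 and 0.319 CPM) in NC and 0, 9 and 12 counts (0, 0.172 and 0.2502 CPM) in si-EIF5A2 libraries. NC replicate 3 stood apart from the other NC libraries, and just above the si-EIF5A2 range. Its log2 fold change was -2.94 with a standard error of 1.05. The edgeR adjusted p of 0.0641 missed the threshold. Without NC replicate 3 the log2 fold change was -3.38 and called (adjusted p = 0.0494), and DESeq2 called it too (adjusted p = 0.00854). Over the 6 fits that omit a library, the log2 fold change of TGFB2 ran from -3.63, without si-EIF5A2 replicate 3, to -2.37, without si-EIF5A2 replicate 1, and of these fits only that without NC replicate 3 called it. Across the alternatives the adjusted p of TGFB2 ran from 0.00854 to 0.188.

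The annotation places TGFB2-OT1, a non-coding transcript, on the same strand with 1371 bases shared with the exons of TGFB2. The table gave TGFB2-OT1 7, 2 and 24 counts in NC and 0, 2 and 1 in si-EIF5A2 libraries, so in NC replicate 3 more of the counts of this locus stood under TGFB2-OT1 than under TGFB2. Summed, both genes had 1.70, 1.37 and 0.830 CPM in NC and 0, 0.211 and 0.271 CPM in si-EIF5A2 libraries. In this sum, which was chosen after the values were seen, TGFB2 had a log2 fold change of -3.01 and passed the threshold (edgeR adjusted p = 0.0363).

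Of the TGF-beta receptor genes, TGFBR1 was upregulated and TGFBR2 was higher by less than the fold limit. TGFBR1 (ENSG00000106799), which encodes the type I receptor kinase, lies on the plus strand of chromosome 9 from 99104038 to 99154192. It had 10.3, 8.61 and 8.10 CPM in NC and 22.6, 22.4 and 20.8 CPM in si-EIF5A2 libraries, and the groups lay far apart. TGFBR1 rose 2.43-fold, from 9.01 ± 1.152 to 21.9 ± 0.974 CPM (SD, n = 3 each). In log2 the change was 1.28 with a standard error of 0.13 (95% interval 0.99 to 1.58, edgeR adjusted p = 0.00018). It was called under all alternatives, with values from 1.20 to 1.39.

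TGFBR2 (ENSG00000163513), which encodes the type II receptor that binds the ligand, lies on the plus strand of chromosome 3 from 30606502 to 30694142. It had 503.3, 504.4 and 527.3 CPM in NC and 754.6, 665.5 and 673.9 CPM in si-EIF5A2 libraries, so all si-EIF5A2 values were higher. The difference was 1.36-fold, with a log2 fold change of 0.45 (standard error 0.07, 95% interval 0.28 to 0.62) and an edgeR adjusted p of 0.00222. It thus passed the adjusted p, as did 36.9% of all genes tested, but not the fold change limit. With no limit on the fold change, 4 of the 10 members were called, TGFBR2 being the added gene.

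Even so, TGFBR1 remained the minor receptor transcript. Its level per kilobase was 0.0141, 0.0117 and 0.0106 of that of TGFBR2 in NC and 0.0206, 0.0231 and 0.0212 in si-EIF5A2 libraries. The log2 ratio went from -6.38 ± 0.21 to -5.53 ± 0.087 (SD, n = 3 each), and every si-EIF5A2 library was above every NC library.

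Neither activin receptor gene was called. ACVR2A (ENSG00000121989), a type II receptor gene on the plus strand of chromosome 2 from 147844517 to 147930826, had 5.63, 4.53 and 3.85 CPM in NC and 5.44, 7.22 and 7.07 CPM in si-EIF5A2 libraries. The groups overlapped through NC replicate 1 and si-EIF5A2 replicate 1. Its log2 fold change was 0.49 (95% interval 0.03 to 0.95, edgeR adjusted p = 0.0922). On the opposite strand its exons share 430 bases with those of ORC4 and 110 with those of ENSG00000223911.

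ACVR1B (ENSG00000135503), the type I receptor gene for activin on the plus strand of chromosome 12 from 51951667 to 51997078, had 34.1, 33.4 and 32.9 CPM in NC and 29.05, 29.52 and 28.40 CPM in si-EIF5A2 libraries. The groups did not overlap, but the difference was small, with a log2 fold change of -0.21 (95% interval -0.39 to -0.022, edgeR adjusted p = 0.0793). The log2 ratio of ACVR2A to ACVR1B per kilobase was -3.11 ± 0.25 in NC and -2.40 ± 0.23 in si-EIF5A2 libraries (SD, n = 3 each). In every library ACVR1B was thus the more abundant of the pair.

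Levels can be compared between genes only per kilobase of exon. In NC the order was TGFBR2 (108.8 ± 2.88 CPM per kilobase), TGFB1 (66.9 ± 10.7), ACVR1B (5.88 ± 0.109), FSTL3 (2.70 ± 0.416), INHBA (2.06 ± 0.207), TGFBR1 (1.32 ± 0.168), ACVR2A (0.690 ± 0.133), FST (0.531 ± 0.234), INHBB (0.498 ± 0.0239) and TGFB2 (0.211 ± 0.132; SD, n = 3 each). Neighbours in this order had ranges that did not overlap, except ACVR2A with FST and FST with INHBB. In si-EIF5A2 libraries INHBA took rank 3 with 6.65 ± 0.429 CPM per kilobase, above ACVR1B with 5.09 ± 0.0994, FSTL3 with 3.62 ± 1.71 and TGFBR1 with 3.20 ± 0.142. The ranges of ACVR1B and FSTL3, of FSTL3 and TGFBR1, and of ACVR2A and FST overlapped there.

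**Figure D3:**
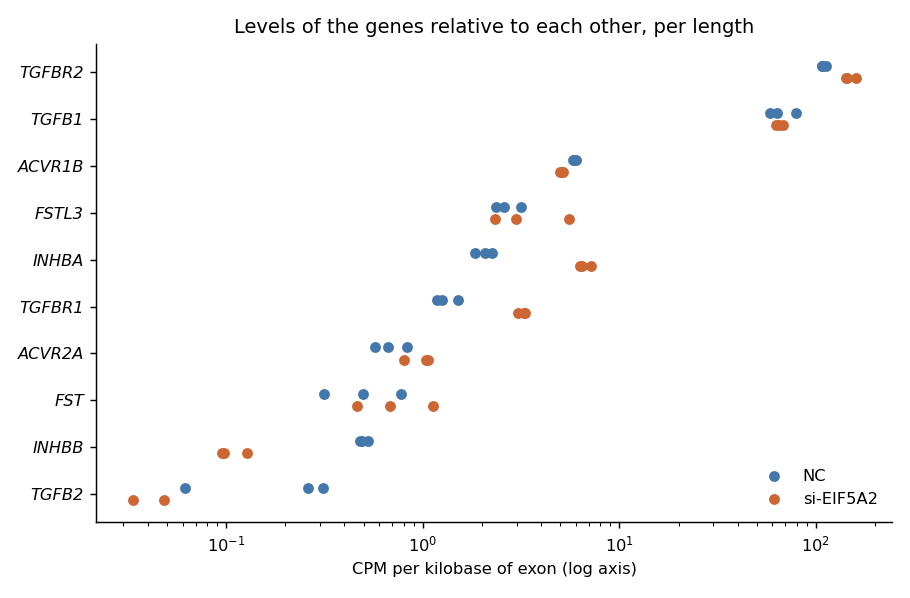
Level of each gene per kilobase of exon (horizontal log axis, CPM per kilobase) in the NC (blue) and si-EIF5A2 (orange) libraries, 1 point per library, ordered by the NC mean. TGFBR2 and TGFB1 stand above all other genes, INHBA passes FSTL3 and ACVR1B in si-EIF5A2 libraries, and the si-EIF5A2 library in which TGFB2 was at 0 has no point on this axis.

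The ratio of the TGF-beta ligand genes rested on few TGFB2 fragments. Per kilobase, TGFB1 was 253.8, 242.9 and 945.7 times TGFB2 in NC replicates 1 to 3. It was 1938 and 1407 times TGFB2 in si-EIF5A2 replicates 2 and 3, and no ratio exists for si-EIF5A2 replicate 1, where TGFB2 was at 0. The NC mean in log2 (8.60 ± 1.11, SD, n = 3) rests on NC replicate 3 for its spread.

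**Figure D4:**
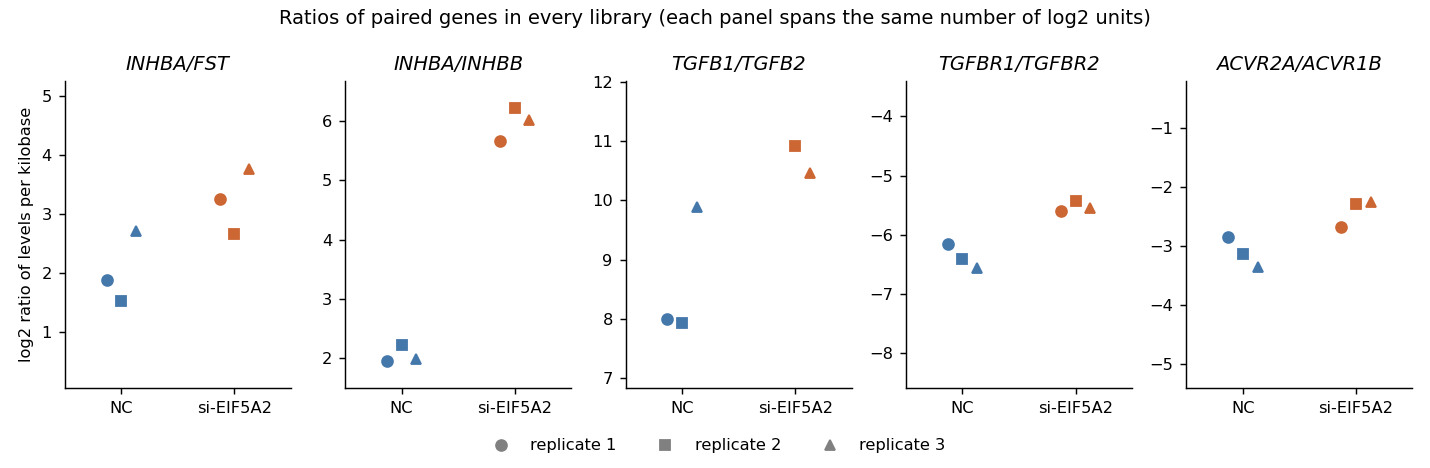
Log2 ratio of the levels per kilobase of 5 pairs of genes (vertical axes, all spanning the same number of log2 units) in the NC (blue) and si-EIF5A2 (orange) libraries, with a marker shape for each replicate number. The INHBA to INHBB ratio has the largest difference between the group means (3.92), and the INHBA to FST ratio overlaps between the groups.

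The tested genes with the profile nearest to INHBA across the 6 libraries, by Euclidean distance in centred log2 CPM, were NAB2 (distance 0.17), a Y RNA gene (ENSG00000207425, 0.21) and SLC12A4 (0.21). Those nearest to INHBB were S100A2 (0.20), STAMBPL1 (0.22) and NUSAP1 (0.23). With 6 libraries in 2 groups, such a distance mostly compares fold changes, which were 1.79, 1.90 and 1.59 in log2 for NAB2, the Y RNA gene and SLC12A4. For S100A2, STAMBPL1 and NUSAP1 they were -2.12, -2.16 and -2.14.

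Around the members, 73 other genes of the pathway were listed by role, of which 55 were tested and 18 were too low, none of these above 0.340 CPM in any library. Of the 55 genes, 25 (45.5%) were differentially expressed, beside 24.6% of all genes tested, 13 of them upregulated and 12 downregulated. Their median log2 fold change was 0.32, beside -0.010 over all genes tested. These are counts for lists chosen with earlier results of these data known, so nothing particular to the pathway is read from them.

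Of 9 other ligand genes, 6 were not tested and only INHBE was called, with a median log2 fold change of 0.09 over the 3 tested. INHBE, which encodes the inhibin beta E subunit, fell from 11.4 ± 1.11 to 2.03 ± 0.506 CPM (SD, n = 3 each; log2 fold change -2.50). INHA, the inhibin alpha subunit gene, was at most 0.2502 CPM. GDF11, another activin-like ligand gene, had a log2 fold change of 0.09 and was not called.

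Of 8 other receptor and co-receptor genes, 5 were tested and 3 were downregulated, with none upregulated and a median log2 fold change of -1.05. ACVRL1, the type I receptor gene ALK1, fell from 3.20 ± 0.751 to 0.799 ± 0.0405 CPM, and ACVR1, which encodes a type I receptor mainly known for BMP signaling, from 28.9 ± 7.71 to 12.7 ± 0.742 CPM (SD, n = 3 each). The third was TGFBR3, which encodes the co-receptor betaglycan, with a log2 fold change of -1.05. Among 9 extracellular inhibitors and decoys, 4 were tested (median 0.58) and 1 was called. BAMBI, a pseudoreceptor gene, rose from 10.7 ± 0.215 to 20.4 ± 0.299 CPM (SD, n = 3 each).

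Genes that store or activate latent TGF-beta were split. Of 14 genes 11 were tested, 3 were upregulated and 3 downregulated, and the median log2 fold change was -0.083. FBN1, the fibrillin gene, rose from 20.7 ± 0.615 to 57.3 ± 10.6 CPM, and ITGAV, the integrin alpha V gene, from 38.3 ± 7.14 to 69.7 ± 12.0 CPM (SD, n = 3 each). NRROS fell from 6.05 ± 0.552 to 1.90 ± 0.208 CPM, and LTBP4, a gene of the latent TGF-beta binding protein family, from 43.7 ± 5.71 to 19.7 ± 2.80 CPM (SD, n = 3 each). LTBP1 was upregulated (log2 fold change 0.79) and LTBP3 downregulated (-0.81), so members of this family moved in opposite directions.

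All 17 genes of the SMAD list were tested, and 4 were upregulated and 2 downregulated, with a median log2 fold change of 0.41. SMAD3 fell from 122.9 ± 5.96 to 69.3 ± 1.07 CPM (SD, n = 3 each). In log2 the change was -0.83 with a standard error of 0.07 (edgeR adjusted p = 9e-05). SMAD2 (log2 fold change 0.33, adjusted p = 0.0153) and SMAD4 (0.41, edgeR adjusted p = 0.0252) were higher but did not reach a fold change of 1.5. SMAD7, an inhibitory SMAD gene, rose from 13.7 ± 3.44 to 21.8 ± 2.31 CPM, TGIF1, a corepressor gene, from 24.0 ± 1.85 to 52.0 ± 17.6 CPM, and PMEPA1, which encodes a feedback inhibitor, from 9.51 ± 1.30 to 18.6 ± 2.18 CPM (SD, n = 3 each). Also called were SKI, upregulated, and SMAD6, downregulated from 0.486 ± 0.117 to 0.0278 ± 0.0482 CPM, a level at the detection limit.

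The known target genes did not move in a single direction. Of 21 genes 19 were tested, 7 were upregulated and 3 downregulated (median log2 fold change 0.41), and the list shares 5 genes with the lists above. FN1, the fibronectin gene, rose from 140.8 ± 7.997 to 588.1 ± 58.3 CPM (log2 fold change 2.06) and ACTA2, the smooth muscle actin gene, from 24.1 ± 1.35 to 64.5 ± 3.32 CPM (1.42; SD, n = 3 each). IL11, an interleukin gene, fell from 19.2 ± 0.649 to 3.88 ± 0.361 CPM (-2.31) and CCN2, the connective tissue growth factor gene, from 288.4 ± 13.9 to 152.9 ± 2.30 CPM (-0.92; SD, n = 3 each). TAGLN (0.05) and CDKN1A (0.22) were not called.

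**Figure D5:**
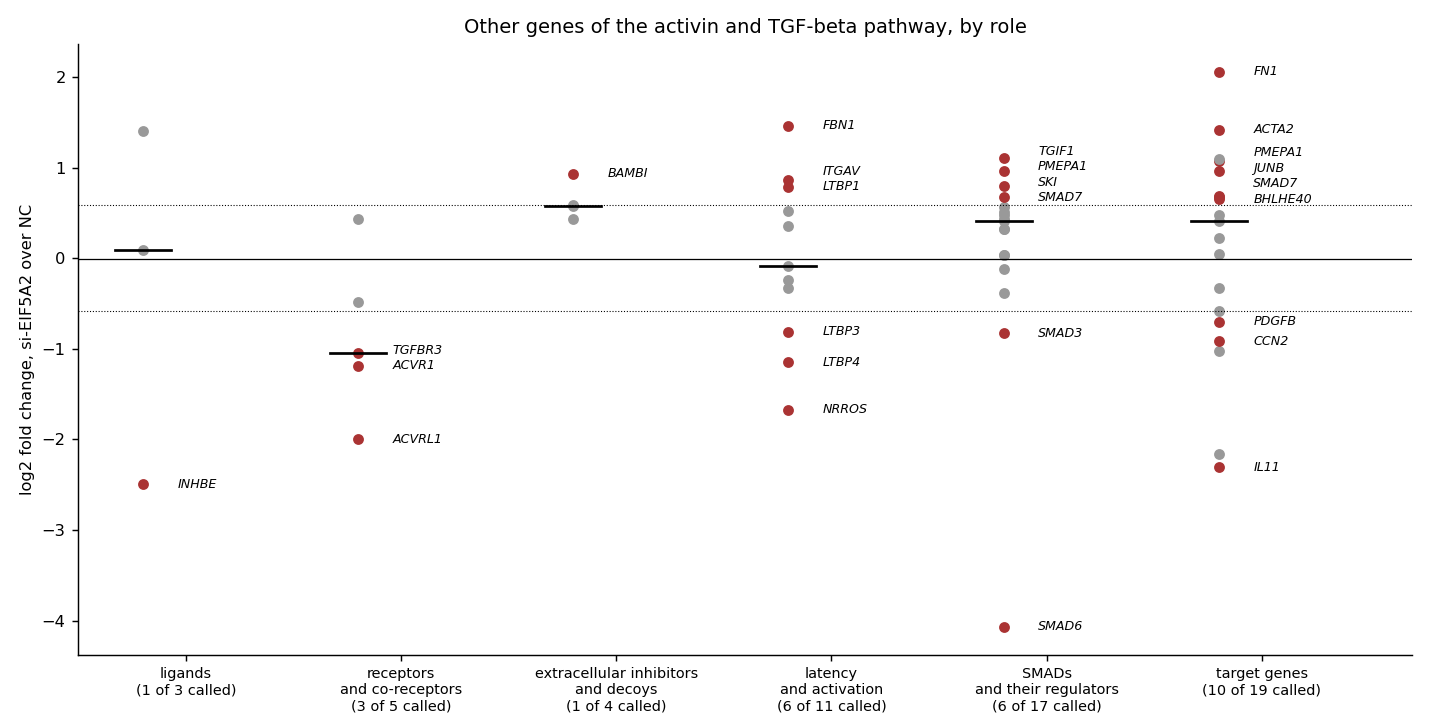
Log2 fold change, si-EIF5A2 over NC (vertical axis), of the tested genes in 6 lists of the pathway (horizontal axis), red where called, most of these labelled, and grey where not; a gene in 2 lists is drawn in both. Short bars mark list medians, the solid line the median of all genes tested and the dotted lines a fold change of 1.5. The lists leave out the members. The median of the other receptors and co-receptors, over 5 tested genes, is the lowest of the 6 (-1.05). The receptor genes among the members, not drawn here, had log2 fold changes of 1.28 (TGFBR1), 0.45 (TGFBR2), 0.49 (ACVR2A) and -0.21 (ACVR1B). Target genes hold calls in both directions.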

How the data were processed

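The authors sequenced paired-end mRNA libraries of SKOV3 cells and estimated transcript levels with StringTie and ballgown. The deposited table holds estimated counts per gene (expected counts) as whole numbers, without scaling to library size or to gene length. The submitters' processing notes list Bowtie 0.12.2 and the mouse builds mm8 and mm9, whereas all 58825 identifiers in the table are human Ensembl genes; the aligner and annotation used for this table are not given in the sources used here. Since the identifiers carry no build, positions and exon lengths were taken by identifier from GENCODE release 29 (GRCh38), which held 58552 of them. StringTie shares fragments between overlapping transcripts, so counts of genes with shared exons are less certain.

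The 6 columns were matched to samples by name, with 0 columns left over. The test had been planned for counts, and rounding changed nothing. edgeR 4.0.16 (R 4.3.3) was run on all libraries with filterByExpr, TMM, robust dispersions and a quasi-likelihood test with condition as the only term, and Benjamini-Hochberg adjustment over 16208 genes. Standard errors are the log2 fold change over the square root of F. A gene was called where its fold change exceeded 1.5 and its adjusted p was under 0.05. Only the edgeR and DESeq2 fits were tested on simulated counts, which lacked the step of 3.73 counts and held far fewer changed genes than these data.

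Named were all members, EIF5A2, SMAD2, SMAD3, SMAD4 and SMAD7. Also named were the 2 largest called changes per direction and pathway list among genes of at least 1 CPM on average. The 3 genes nearest in profile to the largest rise and fall were named too. Other pathway genes named (TGFBR3, LTBP1, LTBP3, SKI, SMAD6, INHA, GDF11, TAGLN, CDKN1A, and COL1A1 as a marker) were chosen after their values were seen. Some listed genes are counted but not reported here by name. Members and lists were chosen with earlier results of these data known. The alternatives were DESeq2 1.42.0, other normalizations, filters and thresholds, the replicate number as a block, whole fragments, and leaving out each library; summing TGFB2 with TGFB2-OT1 was added after seeing the data.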

Additional observations from a re-analysis of the deposited data

How the results depend on the processing

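INHBA, INHBB and TGFBR1 were called under every alternative run, and the number of members called was 3 or 4 throughout. TGFB2 was the added member with DESeq2, with unadjusted p and a 2-fold limit, without NC replicate 3 and when summed with TGFB2-OT1; with whole fragments and with at least 10 counts in every library it was not tested. Signs turned for FSTL3 without si-EIF5A2 replicate 2 (-0.027) and for TGFB1 without NC replicate 1 (0.097), neither of them called; with each library left out in turn FSTL3 ran from -0.027 to 0.654 and TGFB1 from -0.134 to 0.097. With an unadjusted p under 0.05 and a 2-fold limit, calls fell to 14 of the pathway genes and 2370 of all genes (872 higher, 1498 lower). Both choices changed together there, and their separate parts were not tested. Leaving out each library in turn gave 3 to 4 members, 22 to 26 pathway genes and 3638 to 3907 genes in all. With the replicate number as a block, 3 members, 24 pathway genes and 3731 genes were called; deviations of same-numbered libraries correlated at -0.024, 0.0052 and -0.0027, and no library correlated best with its own number, so the numbers were not taken as pairs. The fold changes of INHBB and TGFB2 rest on few fragments in si-EIF5A2 libraries.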
